A study of Mus musculus with 3 samples.

Results

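CD8 T cells that carried RNA of the resting-cell genes Dapl1, Ccr7 and Lef1 were taken from the leukocytes of mouse melanoma grafts by a rule on raw counts per cell. A cell entered with at least 3 counts over Cd3d, Cd3e and Cd3g, at least 2 over Cd8a and Cd8b1, none of Cd4 and fewer than 10 over C1qa, C1qb and C1qc, which mark macrophages. It also had at least 2 counts over Dapl1, Ccr7 and Lef1, none of Pdcd1, at most 2 over Klra1, Klra6 and Klra7, and at most 1 over the division genes Mki67, Top2a, Birc5 and Ube2c. The rule kept 2176 of 43730 deposited cells, of which 379 came from mice of 4 months, 822 from mice of 12 months and 975 from mice of 20 months. They are called gated cells here, and the CD8 gate is the set that meets the conditions on Cd3, Cd8, Cd4 and C1q genes alone, with 5060, 7945 and 6959 cells. The members were thus chosen by their own counts of these genes. Mice, 7 of each age, received 500000 cells of the transplantable mouse melanoma line YUMM1.7 under the skin, and the tumours were taken 18 days later. Live CD45-positive cells were sorted and sequenced by PIP-seq, a 3′ method that partitions cells without a microfluidic chip, with 1 library per age. The labels give no strain, sex or genotype and do not say how each mouse contributed, so the ages are 3 libraries without a replicate check. No test between ages was possible, and every interval below is a 95% interval for counting error only.

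Naive and central memory CD8 T cells recirculate between blood and lymph nodes. Ccr7, a chemokine receptor, guides them into nodes, and S1pr1, a receptor for sphingosine-1-phosphate, lets them leave. Lef1 and Tcf7 are transcription factors of this resting state, and Bcl2 and the interleukin-7 receptor keep such cells alive. In tumours, CD8 T cells that meet antigen repeatedly gain Pdcd1, which encodes PD-1, with other inhibitory receptors and the factor Tox.

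The libraries held 14393, 14653 and 14684 cells with median totals of 6789, 7411 and 6936 counts per cell. Gated cells had medians of 6633, 7201.5 and 6392. Counts of T cell genes were also found in cells of another kind, and their source was not tested. C1q-high cells, which have 10 or more C1q counts, carried a median of 2, 5 and 4 Cd3 counts, against 16, 18 and 16 in gated cells. At least 2 counts of Dapl1, Ccr7 and Lef1 were seen in 4.33%, 12.1% and 9.83% of C1q-high cells and in 16.4%, 24.0% and 24.4% of the CD8 gate. With each cell thinned to 3500 counts the shares were 0.502%, 1.09% and 0.917% of C1q-high cells, and 9.82%, 14.9% and 16.1% of the CD8 gate.

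**Figure D1:**
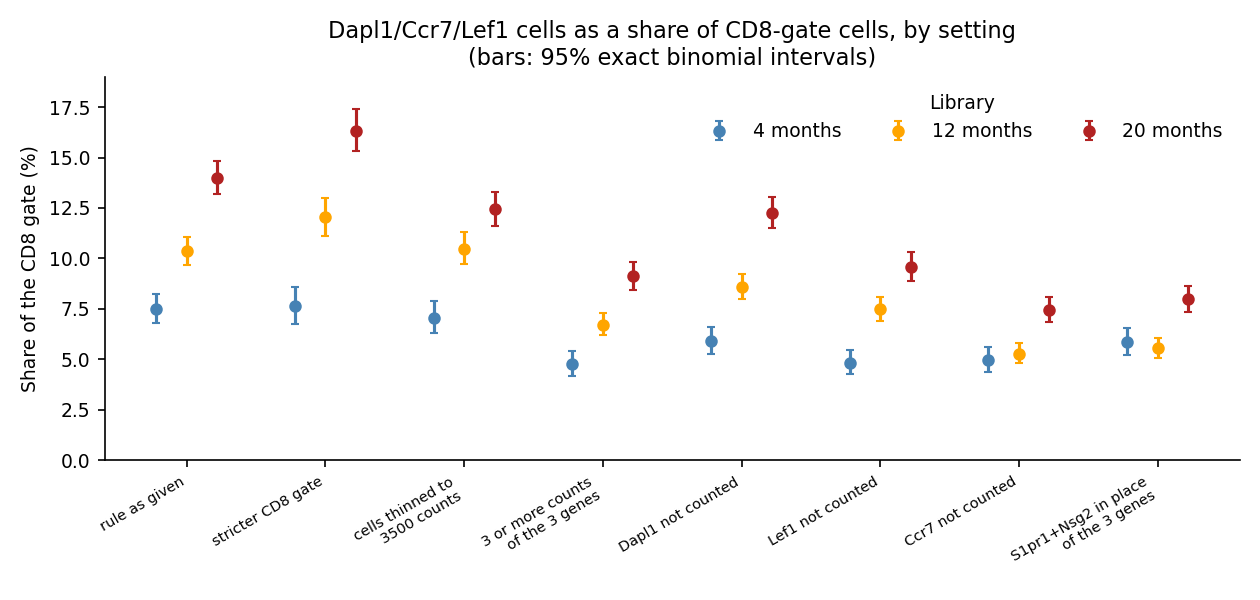
Gated cells as a percentage of the CD8 gate (vertical axis) in the libraries of 4, 12 and 20 months (colours), under the rule and 7 other settings (horizontal axis). Bars are 95% exact binomial intervals. The 20-month library is highest under each setting shown, and 12 months lies above 4 months except with S1pr1 and Nsg2 counted in place of the 3 genes.

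Gated cells took a larger part of the CD8 gate at the older ages. In the order of 4, 12 and 20 months they made up 7.49% (6.78 to 8.25, Clopper-Pearson), 10.3% (9.68 to 11.0) and 14.0% (13.2 to 14.8) of it. These intervals do not overlap. Set against the youngest library, the share was 1.38 times as large at 12 months (1.23 to 1.55, Katz) and 1.87 times as large in the oldest (1.67 to 2.09). Over all deposited cells the shares were 2.63%, 5.61% and 6.64%. Under every setting computed, of which the plot of shares shows the rule and 7 others, the 20-month value was above that of 4 months. The 12-month value was not. With S1pr1 and Nsg2, which the rule does not use, counted in place of the 3 genes, the shares were 5.85%, 5.55% and 7.98%, and the 12-month ratio was 0.949 (0.822 to 1.09). Without Ccr7 in the sum they were 4.96%, 5.27% and 7.44%.

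The 3 genes admitted cells in different proportions by age. Cells with any Ccr7 made up 65.7%, 78.7% and 75.8% of gated cells. In the order of age, cells with Ccr7 as the sole gene of the 3 made up 12.9%, 23.1% and 23.4% of gated cells. Cells with any Dapl1, which encodes death associated protein-like 1, made up 43.3%, 38.4% and 31.6%. Summed Dapl1 was 285, 224 and 200 CPM in gated cells, CPM being counts scaled to 1 common total per cell set. Ccr7 was at 477, 620 and 431 CPM and Lef1 at 160, 118 and 154 CPM. The highest sum of the 3 genes in a cell was 78, 105 and 55 counts. Exactly 2 counts, the least the rule takes, were held by 138, 288 and 340 gated cells, and 392, 766 and 681 cells stood just outside with 1. Another 187, 422 and 385 cells met all conditions but carried Pdcd1.

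Some gated cells carried defining RNA of other cell types. Fscn1, the actin-bundling gene that with Ccr7 marks mature dendritic cells, had 5 or more counts in 10, 53 and 20 gated cells. The number was 0, 1 and 1 in PD-1-positive CD8 cells. Their definition, given below, excludes any Ccr7 count, so they are no reference for how often such cells occur. Cells admitted by Ccr7 alone held Fscn1 at 409, 736 and 190 CPM, and cells admitted by Lef1 alone at 0, 13.0 and 4.82 CPM. Ncr1, which encodes the NK cell receptor NKp46, had 5 or more counts in 10, 21 and 12 gated cells. Foxp3 reached that number in 1, 3 and 0 cells, and Mlana, Pmel and Dct of the melanoma list in none. A stricter CD8 gate was therefore added after the values had been seen. It asks for 8 or more Cd3 and 5 or more Cd8 counts, at most 1 of Fscn1, at most 30 each of H2-Aa and Lyz2 and at most 2 over Ncr1 and Klrb1c. It kept 255, 569 and 807 gated cells. Their share of the equally restricted CD8 gate was 7.64%, 12.0% and 16.3%.

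The first comparison set gated cells against PD-1-positive CD8 cells of the same library. These have 1 or more Pdcd1 counts, none of Dapl1, Ccr7 and Lef1, and the same limits on Klra and division genes, and they numbered 1292, 1271 and 1302. The rule sets the 2 populations apart, so their differences are a description. Of 2837 genes at 50 CPM or more on at least 1 side in every library, 14 (0.493%) were at least 2-fold higher in gated cells in all 3 libraries and 22 (0.775%) at least 2-fold lower. The genes named on the higher side included Nsg2, Tcf7, S1pr1, Satb1 and Bcl2, and those on the lower side Ccl3, Rgs16, Lag3, Ccl4 and Ifng.

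**Figure D2:**
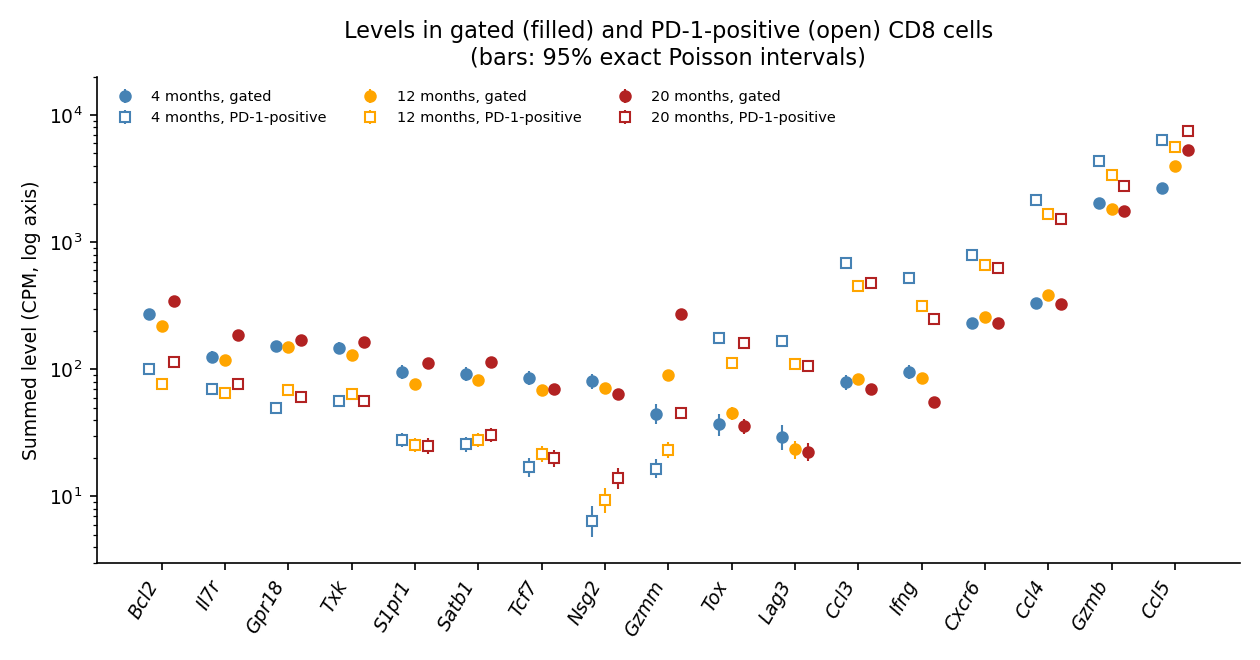
Summed level of 17 genes (CPM, log axis) in gated cells (filled circles) and PD-1-positive CD8 cells (open squares) of the 3 libraries (colours), with 95% exact Poisson intervals. From Bcl2 to Gzmm gated cells are the higher in each library, and from Tox to Ccl5 the lower.

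Migration genes went both ways. Of 6 tested genes of lymph node homing and egress, 3 were higher in gated cells in every library, 2 of them at least 2-fold, and 1, the integrin gene Itgal, was lower in every library. Of 7 tested genes of tissue retention and inflamed-tissue homing, none was higher in every library and 5 were lower, 1 of them, Cxcr6, at least 2-fold. S1pr1 stood at 96.0 (84.8 to 108), 76.6 (70.0 to 83.6) and 112 (104 to 120) CPM in gated cells of 4, 12 and 20 months, and at 28.0, 25.4 and 25.1 CPM in PD-1-positive cells. Gpr18, a G protein-coupled receptor of lymphocytes, was at 152, 150 and 169 CPM against 49.8, 68.8 and 60.7 CPM. Cxcr4, a chemokine receptor for bone marrow and tissue niches, was at 72.6, 106 and 106 CPM against 32.4, 55.7 and 56.4 CPM.

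Transcription factors of the resting state followed. Tcf7, the partner of Lef1, was at 85.4, 68.2 and 69.6 CPM in gated cells and at 16.9, 21.7 and 20.0 CPM in PD-1-positive cells. Satb1, a chromatin organiser of T cells, was at 92.0, 83.0 and 113 CPM against 25.8, 28.0 and 30.5 CPM. Bach2, a repressor that holds back effector genes, was at 66.1, 57.7 and 74.7 CPM against 24.9, 27.1 and 35.1 CPM. Of the 10 genes of the quiescence and stem-like factor list, 6 reached 50 CPM, and these 3 were 2-fold higher in all libraries. Ets1 of that list was lower in gated cells in every library, at 119, 91.5 and 107 CPM against 138, 101 and 115 CPM.

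Of 8 tested genes of the list of cytokine receptors and survival, 3 were higher in gated cells in every library, 1 of them at least 2-fold, and 1 was lower in every library. The list's median log2 ratios were 0.0769, 0.102 and 0.461. Bcl2, which holds back cell death, was at 274, 218 and 345 CPM in gated cells and at 101, 77.2 and 114 CPM in PD-1-positive cells. Il7r, the interleukin-7 receptor chain, was at 126, 118 and 187 CPM against 70.1, 65.0 and 76.6 CPM. Nsg2, which encodes a neuronal vesicle protein and is among the marker genes of the label, was at 80.3, 71.3 and 64.2 CPM against 6.38, 9.38 and 13.9 CPM. Txk, a TEC family kinase, was at 148, 130 and 165 CPM against 56.2, 64.3 and 56.9 CPM. Sidt1, a transmembrane protein gene, was at 100.4 CPM at 4 months against 35.0 CPM. The 4 label markers that the rule leaves out, S1pr1, Bcl2, Gzmm and Nsg2, were each higher in gated cells in all 3 libraries. They were chosen with earlier results of these data known, so this is no independent evidence. Several of the genes named so far were not particular to gated cells. CD8 cells with 3 or more Klra counts held Txk at 210, 205 and 215 CPM, Bcl2 at 224, 199 and 262 CPM and Tcf7 at 74.2, 63.8 and 63.9 CPM. Satb1 was there at 72.5, 69.2 and 101 CPM and Gpr18 at 125, 144 and 142 CPM. S1pr1, at 31.0, 36.4 and 37.5 CPM, and Nsg2, at 44.8, 44.5 and 34.2 CPM, lay further below gated cells.

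Fscn1, Cd63 and Tbc1d4, 3 of the 13 genes that the naming rule gave on the higher side, did not hold in the stricter CD8 gate. There their smallest log2 ratio over the libraries was −0.34 for Fscn1, −0.34 for Cd63 and −0.73 for Tbc1d4. The 10 highest cells held 89.0% of the Fscn1 counts of gated cells at 4 months.

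Lower in gated cells were chemokines and cytokines that CD8 T cells release on contact with antigen. Ccl3 was at 78.8, 83.6 and 70.5 CPM in gated cells and at 692, 452 and 477 CPM in PD-1-positive cells. Ccl4 was at 331, 384 and 325 CPM against 2163, 1657 and 1518 CPM. Ifng, the gene of interferon-gamma, was at 96.0, 85.1 and 55.2 CPM against 521, 316 and 247 CPM. In C1q-high cells Ccl3 was at 226, 311 and 235 CPM and Ccl4 at 788, 922 and 704 CPM, above their levels in gated cells.

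Inhibitory receptors and exhaustion factors were lower as well. Lag3, which binds MHC class II, was at 29.2, 23.5 and 22.5 CPM in gated cells and at 168, 110 and 106 CPM in PD-1-positive cells. Tox was at 36.9, 45.2 and 35.6 CPM against 175, 112 and 161 CPM. Rgs16, a regulator of G protein signalling, was at 17.2, 18.6 and 11.4 CPM against 141, 89.7 and 95.4 CPM. Of the exhaustion list, 10 of 12 genes reached 50 CPM, all 10 were lower in gated cells in every library and 5 of them at least 2-fold. The list's median log2 ratio was −1.46, −0.99 and −1.17, where all genes had −0.06, −0.09 and −0.09. Pdcd1 was used to define both populations, so these differences are no independent evidence.

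Cxcr6, a receptor that holds T cells in inflamed tissue, was at 230, 259 and 230 CPM in gated cells and at 797, 661 and 627 CPM in PD-1-positive cells. Gzmk, which encodes granzyme K, was at 58.0, 75.1 and 79.3 CPM against 200, 208 and 266 CPM. Trgc2, S100a4, Ifitm1, Hip1, Penk and Ly6a2 were also among the 15 genes that the naming rule gave on this side. Of 12 cytotoxic effector genes tested, 11 were lower in gated cells in every library and 4 at least 2-fold. Effector RNA was nonetheless present. Gzmb, the gene of granzyme B, was at 2046, 1819 and 1754 CPM in gated cells, 4340, 3383 and 2751 CPM in PD-1-positive cells and 693, 997 and 754 CPM in C1q-high cells. Nkg7, a granule protein gene, was at 2540, 2514 and 2390 CPM against 4229, 3558 and 3609 CPM in PD-1-positive cells.

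Of 7 tested effector transcription factors, 6 were lower in gated cells in every library and 1 higher, with medians of −0.39, −0.58 and −0.80. Of 3 tested progenitor exhausted genes 2 were higher in every library and none lower, with medians of 0.83, 0.85 and 1.28. The lists that follow differed less. Of 10 tested CD8 memory genes 7 were lower in every library and 1 higher, with medians of −0.31, −0.35 and −0.26. Of 14 T cell receptor signalling genes 8 were lower in gated cells in every library and none 2-fold, with medians of −0.20, −0.32 and −0.25. The 10 tested glycolysis genes had medians of −0.13, −0.19 and −0.23, and 12 interferon response genes −0.15, −0.33 and −0.26. The 5 tested division genes outside the rule had medians of −0.24, −0.10 and −0.18. Ribosomal protein genes were higher in gated cells in every library for 78 of 84, with medians of 0.31, 0.37 and 0.34. Against CD8 cells with neither Pdcd1 nor the 3 genes, 9 genes were 2-fold higher and 134 lower, and only 3 of those 134 were among the 22 lower against PD-1-positive cells. In that comparison set Lyz2, a myeloid gene, was at 5000, 4398 and 4295 CPM, against 997, 1264 and 956 CPM in gated cells, and its part in the 134 was not tested.

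The second comparison was between ages within gated cells. The makeup of gated cells differed along Ccl5, a chemokine that memory and effector CD8 cells hold as ready RNA and naive cells lack. Ccl5 is on a fixed list of 12 CD8 memory genes, as is Gzmm below. Of these 12, only 5 were above their 4-month level at 20 months, 1 of them, Gzmm, at least 2-fold. The list's median log2 ratio was −0.05, against −0.11 for all genes. The median gated cell of the 3 ages in order held Ccl5 at 1234, 2296 and 4943 CPM. In PD-1-positive cells the medians were 4955, 3428 and 5217 CPM, and in C1q-high cells 458, 614 and 672 CPM. A split at 2500 CPM, set after the values had been seen, put 35.4% (30.5 to 40.4), 47.7% (44.2 to 51.2) and 73.2% (70.3 to 76.0) of gated cells above it. It is a cut through a range, and 39, 110 and 100 cells lay within 1.25-fold of it. In PD-1-positive cells 69.3%, 56.6% and 69.4% were above it, and in C1q-high cells 7.33%, 10.5% and 11.9%.

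**Figure D3:**
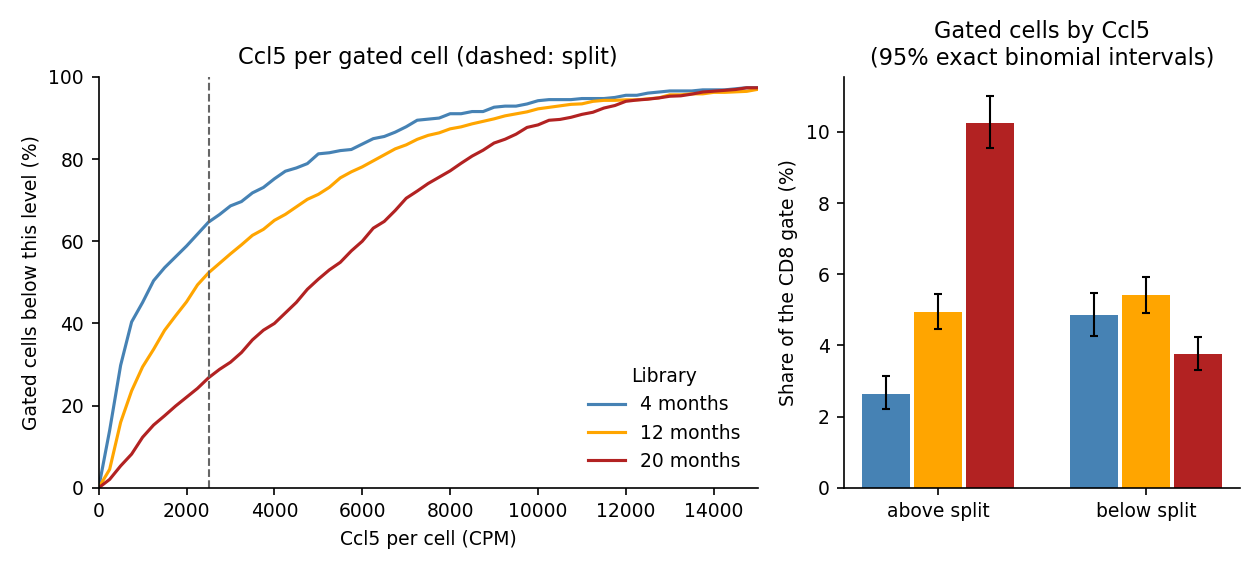
Left, the percentage of gated cells (vertical axis) with less Ccl5 than the level on the horizontal axis (CPM per cell), for the 3 libraries, with the split at 2500 CPM dashed. Right, gated cells above and below the split as a percentage of the CD8 gate with 95% exact binomial intervals. The share above the split is 2.65%, 4.93% and 10.3%, and the share below it 4.84%, 5.41% and 3.75%.

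The larger share of gated cells at 20 months lay above the split. Gated cells above it made up 2.65% (2.22 to 3.13), 4.93% (4.47 to 5.43) and 10.3% (9.56 to 11.0) of the CD8 gate, from the youngest library to the oldest. The 20-month ratio to 4 months was 3.87 (3.23 to 4.64). Gated cells below it made up 4.84% (4.27 to 5.47), 5.41% (4.92 to 5.93) and 3.75% (3.32 to 4.22), with a 20-month ratio of 0.775 (0.653 to 0.919). Under 5 other settings, the 20-month ratio above the split lay between 3.32 and 4.53, and below it between 0.612 and 0.995.

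Levels of other genes differed between the 2 sides of the split. S1pr1 was at 118, 103 and 131 CPM above and 85.1, 54.7 and 64.5 CPM below, and Il7r at 185, 153 and 228 CPM above and 96.5, 88.3 and 86.4 CPM below. Dapl1 was the reverse, at 149, 106 and 156 CPM above and 351, 323 and 309 CPM below.

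Gzmm had the clearest difference between ages among the label markers. It encodes granzyme M, a granule protease of NK cells and some memory T cells. Gated cells held it at 44.9 (37.3 to 53.6), 90.9 (83.8 to 98.5) and 270 (258 to 283) CPM by age. Relative to the youngest library this was a log2 ratio of 1.00 (0.74 to 1.31) for 12 months and 2.56 (2.33 to 2.87) for 20 months. After thinning, 13.7%, 17.6% and 43.0% of gated cells had a count. Other cells were also higher at 20 months, but at lower levels. PD-1-positive cells held 16.6, 23.3 and 45.7 CPM, CD8 cells with neither marker set 26.7, 38.8 and 114 CPM, and CD8 cells with 3 or more Klra counts 15.7, 41.7 and 74.7 CPM. C1q-high cells went from 3.43 to 24.2 CPM, a log2 ratio of 2.51. The log2 ratio at 20 months was 1.41 in PD-1-positive cells, 2.06 in CD8 cells with neither marker set and 2.18 in those with 3 or more Klra counts. It was larger in gated than in PD-1-positive cells by 1.16 (0.77 to 1.54). The other sets lay closer to gated cells, so the rise was not particular to gated cells.

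Gated cells without a Gzmm count were nearly the same share of the CD8 gate at 4 and 20 months. They made up 6.21%, 7.50% and 6.65% of it, with a 20-month ratio of 1.07 (0.933 to 1.23). Those with a count made up 1.28%, 2.84% and 7.36%, with a ratio of 5.73 (4.44 to 7.39). Gzmm was also higher at 20 months in the other cell sets, and a higher level puts more cells on the side with a count. The split therefore does not show which cells account for the larger share. In the stricter gate the ratios were 1.09 (0.926 to 1.29) and 6.76 (5.02 to 9.09), and after thinning 1.17 (1.01 to 1.37) and 5.30 (3.83 to 7.35). At 20 months Gzmm was at 339 CPM in cells above the Ccl5 split and at 103 CPM below it.

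Trdc, the constant gene of the T cell receptor delta chain, moved with Gzmm at 20 months. Gated cells held Trdc at 115, 65.8 and 152 CPM, and those in the stricter gate at 28.5, 30.4 and 156 CPM. At 20 months 38.2% of gated cells with a Gzmm count (33.5 to 43.0) had a Trdc count after thinning, against 12.6% of those without (9.95 to 15.6). The pairs were 9.62% and 9.79% at 4 months and 11.7% and 7.09% at 12 months. At least 5 Trdc counts were found in 21, 30 and 82 gated cells, and 1, 2 and 56 of these also had 3 or more of Gzmm.

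The Trdc-rich cells of the youngest and the oldest library differed in their other receptor chains. At 4 months they held Trac, of the alpha chain, at 236 CPM (164 to 330), Trgc1, of a gamma chain, at 459 CPM (355 to 584) and Cd8b1 at 417 CPM (318 to 537). At 20 months Trac was at 807 CPM (736 to 884), Trgc1 at 45.1 CPM (29.5 to 66.1) and Cd8b1 at 1151 CPM (1065 to 1242). In gated cells without Trdc, Trac was at 1112 and 857 CPM at these ages, Trgc1 at 9.63 and 10.5 CPM and Cd8b1 at 1179 and 1169 CPM. The Trdc-rich cells of 12 months lay near those of 4 months, with Trac at 407 CPM and Trgc1 at 297 CPM. Trdc lies at 54142851 to 54148868 on the plus strand of chromosome 14 (GRCm38), between the variable and the constant segments of the alpha chain locus.

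**Figure D4:**
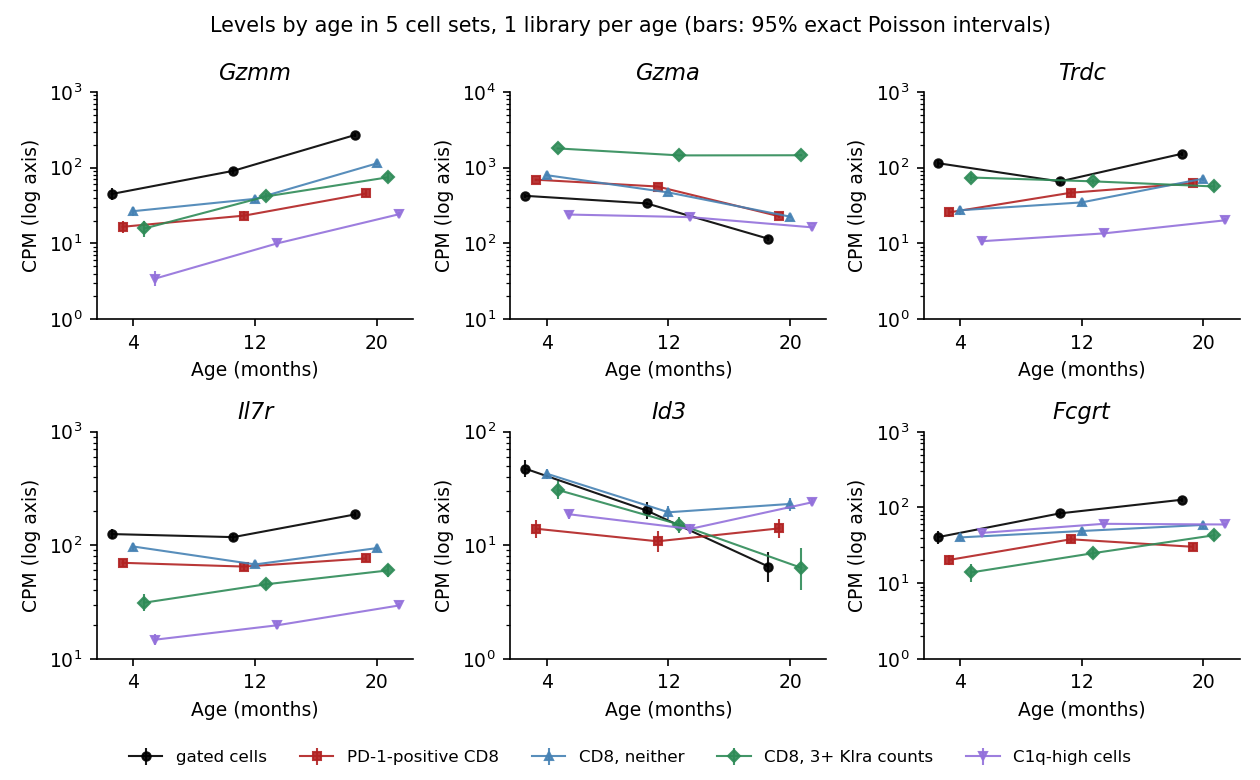
Summed level (CPM, log axes) of 6 genes at 4, 12 and 20 months in gated cells, PD-1-positive CD8 cells, CD8 cells with neither Pdcd1 nor the 3 genes, CD8 cells with 3 or more Klra counts and C1q-high cells, with 95% exact Poisson intervals. Gzmm is highest in gated cells at each age and higher at 20 than at 4 months in all 5 cell sets, Gzma is lower at 20 months in all 5, and Id3 of gated cells goes from 47.5 to 6.50 CPM.

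Across genes, few differed 2-fold. At 20 months 11 of 3002 genes at 50 CPM or more in either library were at least 2-fold higher than at 4 months (0.366%) and 27 at least 2-fold lower (0.899%). At 12 months 18 of 3032 were higher (0.594%) and 14 lower (0.462%). The median log2 ratio of all genes was −0.11 at 20 months and −0.03 at 12 months. C1q-high cells without Cd3, the reference for changes shared across a library, numbered only 292, 58 and 176. They changed 2-fold in the same direction for 4 of the 11 and 8 of the 27 genes at 20 months. Gzmm was among those 4. At 12 months it was 8 of the 18 and 8 of the 14. With all C1q-high cells it was 4 of the 11 and 5 of the 27 at 20 months. At 12 months it was then 9 of the 18 and 7 of the 14. For 26 of the 27 lower genes the 10 highest of the 379 cells held at least 25% of the counts at 4 months.

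At 20 months 7 genes were higher without those marks, of which 6 met the rule for naming. Fcgrt, which encodes the neonatal Fc receptor, was at 40.5, 83.4 and 126 CPM in gated cells, a log2 ratio of 1.62 at 20 months (1.35 to 1.94). PD-1-positive cells held it at 20.3, 38.0 and 30.2 CPM. CD8 cells with 3 or more Klra counts held 13.8, 24.8 and 43.0 CPM, a similar log2 ratio of 1.57 at 20 months. In CD8 cells with neither marker set the ratio was 0.54. After thinning, 10.0%, 23.1% and 31.6% of gated cells had an Fcgrt count, and 14.1%, 18.2% and 18.3% of C1q-high cells. Zcchc18, a zinc finger gene, was at 20.1, 28.9 and 65.4 CPM, with 15.2, 16.2 and 18.4 CPM in PD-1-positive cells. CD8 cells with 3 or more Klra counts held it at 39.6, 41.3 and 42.7 CPM, above gated cells at 4 and 12 months. Ifi27, an interferon-induced gene, was at 71.5, 105 and 157 CPM, and at 74.8, 103 and 127 CPM in PD-1-positive cells. In C1q-high cells it was at 33.8, 55.9 and 65.6 CPM. Its log2 ratio at 20 months was 1.12 in gated cells and 0.94 in C1q-high cells, so the rise was not particular to gated cells.

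Apoe and Fcgr2b, which macrophages express, were at 144, 282 and 370 CPM and at 48.9, 76.1 and 110 CPM in gated cells. In C1q-high cells Apoe was at 2038, 2916 and 3558 CPM and Fcgr2b at 570, 526 and 522 CPM, and the part of free RNA in these 2 was not tested. Gadl1 was higher at both older ages in gated cells, at 33.2, 70.8 and 69.3 CPM, and likewise at 38.6, 78.1 and 77.6 CPM in C1q-high cells. At 12 months the stress genes Atf3 and Hspa1a were at 95 and 110 CPM, against 38.7 and 53.7 CPM at 4 months and 37.8 and 68.2 CPM at 20 months. C1q-high cells held Hspa1a at 92.6, 190 and 116 CPM, with the same order of ages, and Atf3 at 268, 312 and 182 CPM. The 10 highest gated cells held 24.7% of the Atf3 counts at 12 months. In the stricter gate Atf3 was at 25.6, 47.5 and 28.1 CPM. Prr33 and Gzmm completed the named genes of that age.

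No gene that was lower met the rule for naming at either age. The rule's limit on counts in 10 cells used the library with the higher level. For falls that was the 379 cells of 4 months, and for rises the 822 or 975 cells of an older age. With fewer cells the limit is harder to pass, so falls and rises were not filtered alike. The following genes come from the fixed lists. Gzma, the gene of granzyme A, was at 425, 338 and 115 CPM in gated cells, and the 10 highest cells held 50.7% of its counts at 4 months. Without each gene's 10 highest cells its log2 ratio at 20 months was −1.52 rather than −1.88. Those are 10 of 379 cells at 4 months but 10 of 975 at 20 months, so leaving them out raises 20-month ratios in itself. For Bcl2, the 10 highest cells held 11.6% of the counts at 4 months and 4.58% at 20 months. PD-1-positive cells held Gzma at 694, 564 and 228 CPM. Id3, a factor of long-lived and progenitor CD8 cells, was at 47.5 (39.6 to 56.3), 20.3 (17.0 to 24.0) and 6.50 (4.72 to 8.72) CPM, below the 50 CPM minimum. PD-1-positive cells held Id3 at 14.0, 10.8 and 14.1 CPM, and CD8 cells with 3 or more Klra counts at 30.8, 15.2 and 6.34 CPM. Slamf6, a receptor of the same cells, was at 62.1, 39.3 and 30.7 CPM.

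Lists differed in how they stood between ages. The resting-state lists had median log2 ratios to 4 months at 20 months of 0.06 over 6 quiescence factors and −0.01 over 7 homing genes. None of these tested genes was 2-fold apart. Id3 of the quiescence list lay below the 50 CPM minimum and is not among these 6, and it was lower at both older ages, as given above. Of the 11 cytotoxic effector genes 2 were at least 2-fold lower and none higher at 20 months. The medians of 5 progenitor exhausted genes (−0.66), 5 exhaustion genes (−0.50), 11 early response genes (−0.33) and 12 interferon response genes (−0.28) lay below the −0.11 of all genes. The exhaustion median was −0.09 once each gene had lost its 10 highest cells. That setting raises 20-month ratios in itself, so this value cannot be set against the −0.11 of all genes. All 8 NK cell genes were lower at 20 months, 3 of them by 2-fold, with a median of −0.80, and their summed level in gated cells was 2061, 1914 and 1184 CPM. Its part in the lower Gzma, which is on that list, was not tested. Dendritic cell genes summed to 1370, 1919 and 905 CPM, and 2 of the 3 tested, Fscn1 and Ccl22, were 2-fold higher at 12 months, when Fscn1-rich cells were most frequent. Ribosomal protein genes had a median of 0.22 over 84 genes at 20 months.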

How the data were processed

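Raw counts per gene and cell were deposited by the authors for 3 libraries, 1 per age, as whole numbers over 55401 listed genes. STAR 2.7.10a and GRCm38 are named per the submitters' processing notes. How cells were called, whether molecules or reads were counted and whether strand was used are not given in the sources used here. Library totals were 110371225, 127850782 and 119873564 counts, and 3, 4 and 2 cell barcodes were shared between pairs of libraries.

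The members and gene lists were chosen with earlier results of these data known. Counts of a cell set were summed per library and given as CPM of that sum. Ratios are log2 of CPM plus 1, for genes at 50 CPM or more on at least 1 side, and a gene was counted when it differed at least 2-fold. Genes named between ages were the 10 highest and 10 lowest at 20 months and 5 and 5 at 12 months, leaving out genes changed alike in C1q-high cells without Cd3, variable segments, pseudogenes, unnamed genes and genes with 25% or more of counts in 10 cells. Against PD-1-positive cells, up to 15 each way were named by the smallest ratio over the libraries, which gave 13 higher and 15 lower genes, and 1 on each side is not reported here. Intervals are exact Poisson for CPM, Clopper-Pearson for shares and Katz for ratios of shares and conditional binomial for log2 ratios of summed counts, at 95%, and cover counting error only. With 1 library per age there was no test. Likely doublets, the 6% of cells with the highest Scrublet score in scanpy 1.11.5, were kept and left out as an alternative, as were cells with over 15% mitochondrial counts. Calls were tested on simulated data. Analyses used Python 3.11.15, numpy 2.4.6, scipy 1.17.1 and pandas 2.3.3.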

Additional observations from a re-analysis of the deposited data

How the results depend on the processing

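The ratio of the share of gated cells in the CD8 gate, 1.38 at 12 months and 1.87 at 20 months, depended on the marker genes and on the denominator. With S1pr1 and Nsg2 in place of Dapl1, Ccr7 and Lef1 the 12-month ratio turned to 0.949 and the 20-month ratio was 1.36. Without Ccr7 they were 1.06 and 1.5. The 20-month ratio was 1.56 with 1 or more counts of the 3 genes and 1.62 with no condition on Klra genes. Added after the data were seen, the stricter CD8 gate gave 1.57 and 2.14, the T gate as denominator 1.58 and 2.22, and all cells 2.13 and 2.52. The 20-month ratio of gated cells below the Ccl5 split, 0.775, was 0.612 with a split at 1500 CPM and 0.995 at 4000 CPM.

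Counts of genes followed the minimum level. Between ages, 32 genes at 12 months and 38 at 20 months became 112 and 132 at 20 CPM and 10 and 9 at 200 CPM, and the 12-month count was 21 with a mean of per-cell CPM. Against PD-1-positive cells, 14 higher and 22 lower genes became 38 and 33 at 20 CPM and 25 and 46 in the stricter gate, with 11 and 20 shared with the main result. Against cells with neither marker set they were 9 and 134, and 3 were higher against all other CD8-gate cells. Against cells with neither marker set, Trgc2, Tox and Penk turned to 0.22, 0.32 and 0.27 (smallest log2 ratio), and the medians of the division and T cell receptor signalling lists to 0.17 and 0.16. The stricter gate turned Fscn1 to −0.34, Cd63 to −0.34 and Tbc1d4 to −0.73. Between ages it turned the cytotoxic list's 20-month median to 0.0753 and the effector factor list's 12-month median to −0.0519. With the median ratio as the scale the division list's 20-month median turned to 0.0112, and without the 10 highest cells of each gene it was 0.11. The glycolysis list's turned to 0.0261 without those cells and to 0.00960 with 3 or more counts of the 3 genes, where the progenitor exhausted list's 12-month median turned to 0.00681, and to 0.0233 without those cells. Causes were not tested. The 3 libraries carry no replicate numbers to pair. No paired analysis was possible because each age has 1 library. Depth limits genes under about 50 CPM.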

Other observations

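Beta chain variable segments gave no separate reading of gated cells. A single Trbv segment could be assigned in 22.7%, 33.3% and 28.9% of gated cells at 4, 12 and 20 months, and in 27.5%, 39.1% and 33.4% of C1q-high cells. Among assigned gated cells the most frequent was Trbv14 at 4 months (19.8%), Trbv12-2 at 12 months (14.6%) and Trbv19 at 20 months (15.6%). In C1q-high cells Trbv14, Trbv16 and Trbv19 came first, with 22.5%, 15.8% and 14.9%. CD4 cells that met the same conditions on Dapl1, Ccr7 and Lef1 numbered 12, 3 and 2, too few to describe.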
